A study of Homo sapiens with 1 sample.

Results

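The cells described here were those with RNA of RAX or SIX6 in 1 single-cell RNA-seq library of H9, an established human embryonic stem cell line, on the way to neural progenitor cells (NPCs). They were chosen by their RAX and SIX6 UMIs (unique molecular identifiers, each of which stands for 1 captured RNA molecule): a kept cell was a member when its RAX and SIX6 UMIs summed to 2 or more. Of 14726 barcodes in the library, 12239 were kept, and 323 of these were members, a share of 2.64% (exact binomial 95% interval 2.36 to 2.94). A kept cell had 2000 to 10000 detected genes, a mitochondrial share of its UMIs of at least 0.01 and below 0.1, and fewer than 5 UMIs per 10000 of ANXA1, TFPI2 and CTGF together. That last limit set aside 1497 cells high in these genes.

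The library was labelled hHAR123 with genotype WT, so the cells carried the human form of HAR123, a human accelerated region, as did every cell compared here. The study's methods state that clones of a genotype were combined and that the cells were taken before rosettes were selected, so clones cannot be told apart in these data. Differentiation used 1 μM dorsomorphin and 10 μM SB431542, inhibitors of BMP and of TGF-β/activin signalling, for 2 days in the dish and 5 days under rotation, followed by 7 days on a coated plate without them. With 1 library there was no replicate, no test was possible and no p-value is given. All intervals are 95% intervals that cover counting error only, and they do not cover differences between cultures or the unequal sharing of RNA among cells.

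The eye field is the part of the anterior neural plate from which both retinae arise. Its cells are defined by a set of transcription factors that act together, among them RAX, PAX6, SIX3, SIX6, LHX2 and OTX2. RAX, a paired-type homeodomain factor, is needed for the optic vesicle to form, and SIX6 is a homeodomain factor of the retina, the hypothalamus and the pituitary. Both genes are thus also used in the anterior hypothalamus, and neither marks the retina alone. SIX3 and LHX2 are shared with the developing forebrain.

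RAX (ENSG00000134438) lies on the minus strand at chr18:59267035-59274086 and SIX6 (ENSG00000184302) on the plus strand at chr14:60509146-60512850 (GRCh38, GENCODE 44). The span of SIX6 is inside that of C14orf39 on the opposite strand. The bases before the start sites of these 2 genes are shown because they are the genes that define the cells. HES5 and a stretch of EMX2 are shown with them because these genes were among the lowest in the cells with SIX6. All 4 genes were matched in RefSeq (GRCh38.p14), and each sequence reads 5′ to 3′ on the gene's own strand. The windows of 250 bases end just before the RefSeq start site, at chr18:59273455-59273704 for RAX, at chr14:60508896-60509145 for SIX6 and at chr1:2530264-2530513 for HES5. For RAX the RefSeq and GENCODE starts differ, and the window lies inside the GENCODE span given above. The stretch of EMX2 is 30 bases at chr10:117542704-117542733. Capitals mark matches, on either strand, to TAATTA, a core that many homeodomain factors bind, to GGATTA, the core of bicoid-type factors such as OTX2, and to GTGGGAA, the site of the Notch effector RBPJ.
RAX: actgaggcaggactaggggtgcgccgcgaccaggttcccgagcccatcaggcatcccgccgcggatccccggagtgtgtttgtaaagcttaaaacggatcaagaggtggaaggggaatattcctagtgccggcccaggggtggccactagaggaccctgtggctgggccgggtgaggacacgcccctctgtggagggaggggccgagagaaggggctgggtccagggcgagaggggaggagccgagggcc
SIX6: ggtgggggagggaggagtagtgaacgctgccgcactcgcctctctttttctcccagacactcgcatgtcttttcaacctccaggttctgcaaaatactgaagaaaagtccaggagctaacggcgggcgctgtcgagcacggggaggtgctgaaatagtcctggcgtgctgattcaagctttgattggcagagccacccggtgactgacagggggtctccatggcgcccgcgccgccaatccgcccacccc
EMX2: tgatccccgcacTAATTAggctcatgaact
HES5: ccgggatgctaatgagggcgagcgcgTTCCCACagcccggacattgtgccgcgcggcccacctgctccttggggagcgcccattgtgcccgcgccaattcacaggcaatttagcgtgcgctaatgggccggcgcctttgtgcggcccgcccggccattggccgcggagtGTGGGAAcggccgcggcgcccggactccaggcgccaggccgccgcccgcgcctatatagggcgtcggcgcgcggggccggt
The HES5 window held 2 RBPJ matches, which began 224 and 81 bases before the start site. The EMX2 window of 250 bases held 1 TAATTA, which began 30 bases before the start site. The stretch shown was cut around this match, so it holds the match by design. No match to these letters was in the windows of RAX and SIX6. Of 35116 such windows in the RefSeq table, 4.35% held TAATTA, 5.62% held GGATTA and 5.43% held GTGGGAA. A match describes the letters of the window and not a bound site.

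RAX and SIX6 were sparse, and few cells held UMIs of both. The 12239 kept cells held 1023 RAX UMIs in 864 cells and 897 SIX6 UMIs in 557 cells. The members fell into 109 cells with 2 or more RAX UMIs and no SIX6 UMI (the RAX cells), 160 cells with 2 or more SIX6 UMIs and no RAX UMI (the SIX6 cells), and 54 cells with at least 1 UMI of each (the double-positive cells). Of the double-positive cells, 29 held exactly 1 UMI of each gene. Were the RAX-containing cells spread evenly over the kept cells of equal depth, 53.5 would have held both genes, against 54 seen (exact Poisson interval 40.6 to 70.5). Co-occurrence above an even spread was thus not detectable at this depth.

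**Figure D1:**
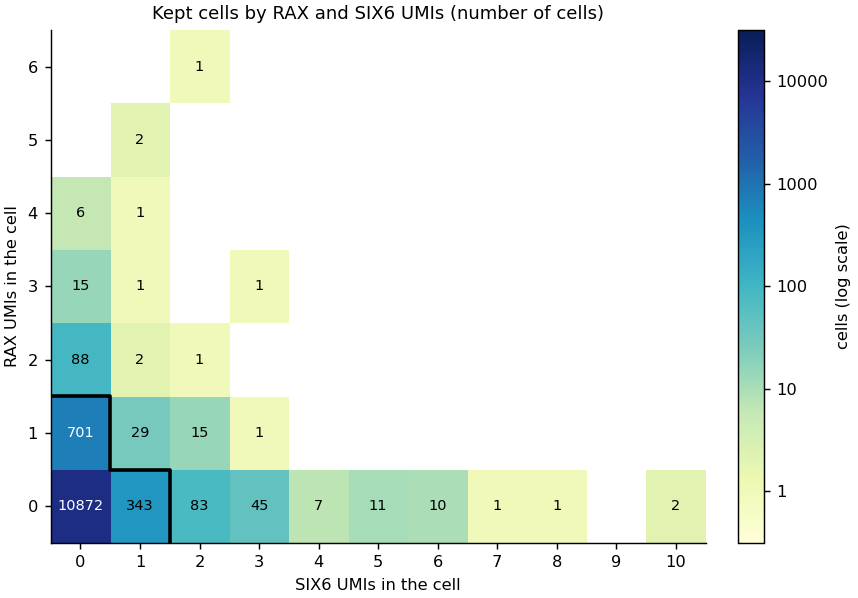
Number of kept cells (printed and as colour on a log scale) with each count of SIX6 UMIs (x axis) and RAX UMIs (y axis); the black line separates the 323 members, above and to the right of it, from cells below 2 UMIs. The RAX cells and SIX6 cells lie on the 2 axes, and the 54 double-positive cells lie off them.

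The limit of 2 UMIs cut through a steep slope. Just inside it were 200 members with exactly 2 UMIs, and just outside it 1044 cells with 1 UMI. SIX6 RNA was the more concentrated of the pair. Its variance over cells was 2.45 times its mean and its highest count was 10 UMIs in a cell, whereas for RAX the variance was 1.34 times the mean and the highest count was 6. In the RAX cells RAX stood at 88.4 UMIs per 1000000 UMIs (CPM), and in the SIX6 cells SIX6 stood at 99.4 CPM, values that the rule itself fixed.

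A count rule favours cells with more UMIs. The members had a median of 26042 UMIs, against 16537 in the 10872 kept cells with no UMI of either gene (the comparison cells), 23109 in the RAX cells, 27411 in the SIX6 cells and 32192.5 in the double-positive cells. All levels below are therefore summed UMIs in CPM, and each ratio sets the UMIs of a gene in a group against those expected from comparison cells in the same of 10 strata of total UMIs. The mitochondrial share was alike, with a median of 5.22% in members and 5.17% in comparison cells. Scrublet doublet scores were in the top 8% of the library for 12.4% of the members, 15.6% of the RAX cells, 8.75% of the SIX6 cells and 16.7% of the double-positive cells, against 7.49% of the comparison cells. Values of RAX cells and SIX6 cells without these barcodes are given beside those of the contractile strata.

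The other factors of the eye field are given first for all members pooled. SIX3, the forebrain and eye field repressor of WNT signalling, was at 382 CPM in members and 329 CPM in comparison cells of equal depth, a ratio of 1.16 (1.12 to 1.20). LHX2, a LIM homeodomain factor that carries the optic vesicle into the optic cup, was at 134 and 151 CPM, a ratio of 0.89 (0.84 to 0.94). PAX6, the paired-box factor of eye and cortex, had a ratio of 1.01 (0.92 to 1.11). OTX2, a factor of the forebrain and of the pigment epithelium, had a ratio of 0.82 (0.76 to 0.89). SOX2, a factor of the whole neural plate, had a ratio of 0.94 (0.90 to 0.97), and SIX3-AS1, the antisense RNA beside SIX3, one of 1.27 (1.10 to 1.46). The list of eye field genes without RAX and SIX6 held 11 genes, of which 6 had a pooled level of at least 5 CPM, and none of these 6 differed by 1.5-fold, beside the 0.312% of all genes that were higher and the 1.75% that were lower in members. TBX2 and MAB21L1 had 0 UMIs in members, and NR2E1, TBX3 and MAB21L2 had 2 UMIs each, but the comparison cells held only 3 and 97 UMIs of the first 2 genes. A count of 0 in 6 genes is what those shares give, and the cells are called here by RAX and SIX6.

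RAX cells and SIX6 cells differed in these factors. In RAX cells PAX6 was at 76.8 CPM against 52.9 CPM, a ratio of 1.45 (1.26 to 1.67), LHX2 had a ratio of 1.22 (1.11 to 1.33), and SIX3 one of 0.99 (0.92 to 1.05). With cells thinned to 5000 UMIs, LHX2 in RAX cells was at 1.11 (0.90 to 1.34), an interval that holds 1. Thinned ratios and shares, here and below, pool cells with no depth strata. They therefore do not match cells on their original depth. In SIX6 cells the order was turned round. SIX3 was at 416 CPM against 331 CPM, a ratio of 1.26 (1.20 to 1.32), and SIX3-AS1 had a ratio of 1.47 (1.23 to 1.76). LHX2 had a ratio of 0.64 (0.58 to 0.70) in SIX6 cells, PAX6 one of 0.68 (0.58 to 0.79) and OTX2 one of 0.66 (0.58 to 0.73). Set directly against RAX cells of like depth (5 strata), SIX6 cells had ratios of 0.50 (0.44 to 0.57) for LHX2, 0.45 (0.36 to 0.56) for PAX6 and 1.24 (1.14 to 1.35) for SIX3. With every cell thinned to 5000 UMIs, LHX2 was seen in 63.3% of RAX cells, 37.5% of SIX6 cells and 55.8% of comparison cells. SIX3 was seen in 74.3%, 86.2% and 73.3% of them. Without thinning LHX2 was seen in 95.4%, 86.2% and 89.2% of these cells, at unequal depths.

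**Figure D2:**
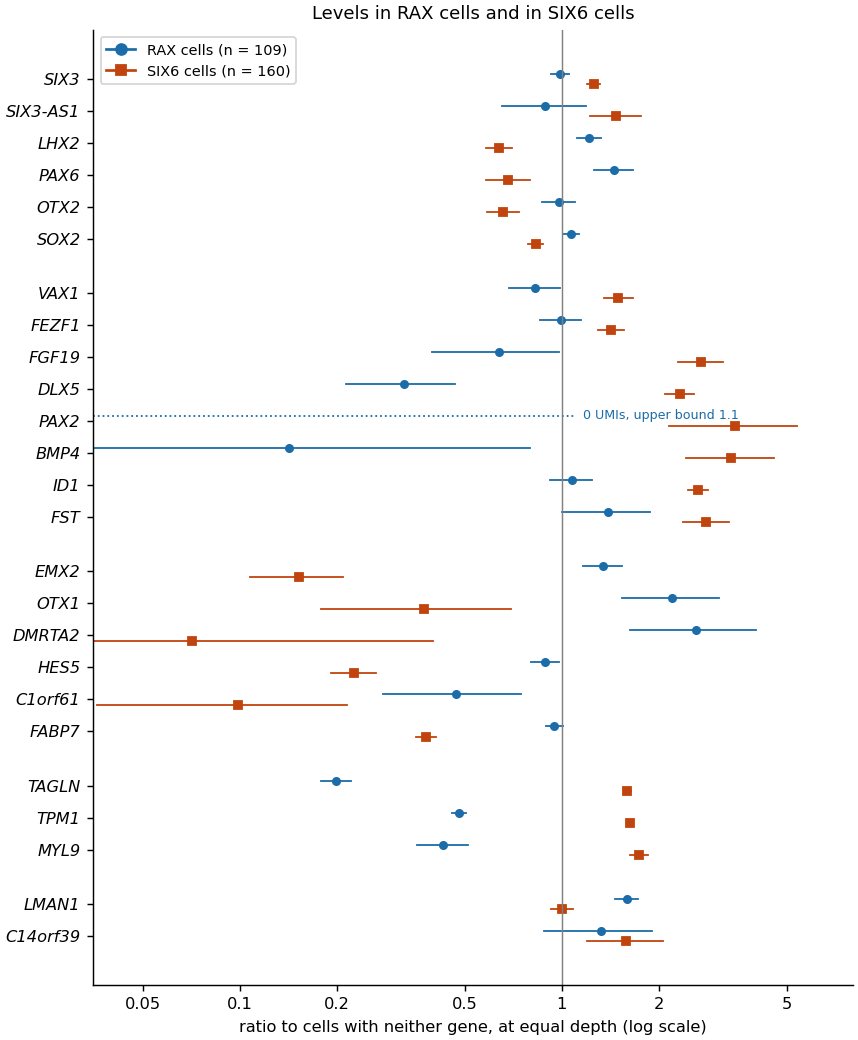
Ratio of each gene's level to that of comparison cells of equal depth (x axis, log scale) in RAX cells (blue circles, n = 109) and SIX6 cells (red squares, n = 160); bars are 95% counting intervals and run on where they meet the left edge. PAX6, LHX2, EMX2 and OTX1 lie right of 1 in RAX cells and left of 1 in SIX6 cells, and DLX5, FGF19 and the contractile genes TAGLN, TPM1 and MYL9 the other way round. With cells thinned to 5000 UMIs and no depth strata, FGF19 in RAX cells lay right of 1 instead, at 1.22. The intervals of OTX1 in both groups, and of LHX2 and EMX2 in RAX cells, then held 1.

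Across 11861 genes with a pooled level of at least 5 CPM, 37 were at least 1.5-fold higher in members (0.312%) and 208 at least 1.5-fold lower (1.75%). In RAX cells 83 genes were higher (0.7%) and 432 lower (3.64%). In SIX6 cells 206 genes were higher (1.74%) and 786 lower (6.63%). Smaller groups scatter more, so these counts do not rank the groups. The median ratio over all 11861 genes was 0.971 for members, 0.985 for RAX cells and 0.958 for SIX6 cells.

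The genes that led the pooled members were those of the SIX6 cells. AC015522.1 (ratio 2.86), FST (2.28), ID1 (2.09), LINC02334 (2.37), XACT (1.92), CNTN6 (1.95), SELENOP (1.93), NQO1 (1.78), CPNE4 (1.81), PRICKLE1 (1.66) and FGF19 (1.80) were among the 12 genes with the highest lower bounds. The same 12 genes led the SIX6 cells, with ratios there from 2.29 for NQO1 to 4.29 for AC015522.1. Follistatin (FST), at 38.4 CPM in SIX6 cells against 13.7 CPM, binds and blocks activins, and its ratio was 2.81 (2.38 to 3.29). ID1, a target of BMP signalling, had a ratio of 2.65 (2.46 to 2.85). XACT, a long noncoding RNA of the active X chromosome in human pluripotent cells, had a ratio of 2.34 (2.26 to 2.41). The size of these ratios depended on the setting. With every cell thinned to 5000 UMIs and no depth strata, FST was at 5.25 (3.44 to 7.72) and XACT at 3.99 (3.68 to 4.32). In strata of depth and contractile level they were lower, at 2.18 (1.84 to 2.56) and 1.68 (1.62 to 1.73). XACT was at 2.03 (1.96 to 2.10) in strata of depth and phase. In RAX cells FGF19 had a ratio of 0.64 (0.39 to 0.98), XACT of 0.76 (0.70 to 0.82) and ID1 of 1.07 (0.92 to 1.24). FST in RAX cells was at 1.39 (1.00 to 1.87), and its excess there depended on the setting. It was at 1.57 (1.13 to 2.12) in strata of depth and contractile level and at 3.03 (1.498 to 5.48) with cells thinned, but at 1.08 (0.70 to 1.60) without the barcodes of highest Scrublet score and at 1.26 (0.67 to 2.17) in cells with no ANXA1, TFPI2 or CTGF UMI, intervals that hold 1. The RAX cell values of ID1, XACT and FGF19 depended on the depth and contractile control, as ID1 was at 1.71 (1.21 to 2.34) with cells thinned to 5000 UMIs and at 1.36 (1.16 to 1.57) in strata of depth and contractile level, and XACT at 0.89 (0.72 to 1.08) and 0.98 (0.90 to 1.05). FGF19 was at 1.22 (0.39 to 2.86) and 0.96 (0.59 to 1.48) in these settings. AC015522.1 and LINC02334 were carried by few cells, and in members 1 cell held 44 of the 271 AC015522.1 UMIs and 1 cell 38 of the 136 LINC02334 UMIs.

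The lists of optic stalk and hypothalamus genes held few genes at 5 CPM or more. Of 5 optic stalk and dorsoventral eye genes at that level, none was 1.5-fold higher or lower in SIX6 cells (median ratio 1.04), and of 3 hypothalamus genes none was higher and FGF10 was lower (median 0.81), beside the 1.74% of all genes that were higher and the 6.63% that were lower, shares at which so few genes give little to read. The genes that follow come from these lists and from the FGF and ventral forebrain lists, by the named gene rule or after their values were seen. VAX1, a homeodomain factor of the ventral optic stalk and hypothalamus, was at 84.0 CPM against 56.1 CPM, a ratio of 1.498 (1.35 to 1.66). FEZF1, a zinc finger factor of the rostral forebrain, had a ratio of 1.42 (1.29 to 1.56), so neither passed 1.5-fold in the reported setting. In SIX6 cells with no ANXA1, TFPI2 or CTGF UMI both did, with VAX1 at 2.23 (1.84 to 2.68) and FEZF1 at 1.68 (1.40 to 2.00). In strata of depth and contractile level they were at 1.22 (1.10 to 1.35) and 1.30 (1.18 to 1.44). FGF17, a signal of the anterior neural ridge, had a ratio of 2.17 (1.70 to 2.75). FGF19, which the early optic vesicle and diencephalon express, was at 38.4 CPM against 14.2 CPM, a ratio of 2.70 (2.29 to 3.17). DLX5 and DLX6, homeodomain factors of the anterior neural border and the ventral forebrain, had ratios of 2.32 (2.09 to 2.58) and 2.24 (1.76 to 2.82). With cells thinned to 5000 UMIs, 3 of these ratios in SIX6 cells were further from 1. They were 5.30 (3.58 to 7.60) for FGF19, 4.64 (3.63 to 5.87) for DLX5 and 1.77 (1.36 to 2.28) for VAX1. FEZF1 was then nearer to 1, at 1.25 (0.98 to 1.57), an interval that holds 1. PAX2, the factor of the optic stalk, had 26 UMIs in 18 SIX6 cells, a ratio of 3.45 (2.15 to 5.37), and BMP4, a signal of the dorsal eye, had 54 UMIs in 26 cells, a ratio of 3.35 (2.43 to 4.54). In RAX cells VAX1 had a ratio of 0.83 (0.69 to 0.99) and DLX5 one of 0.32 (0.21 to 0.47), BMP4 had 1 UMI and PAX2 0 UMIs. With cells thinned to 5000 UMIs, VAX1 and FGF19 lay on the other side of 1 in RAX cells, at 1.03 and 1.22.

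Several defining markers of later eye and hypothalamus fates had 0 UMIs, while other genes of the same lists were present. RAX2, a photoreceptor homeodomain factor, POU4F2, a factor of retinal ganglion cells, and RCVRN, the photoreceptor protein recoverin, had 0 UMIs in members, but the comparison cells held only 0, 1 and 5 UMIs of them, so these zeros do not set members apart. With 9408988 UMIs in the members, a count of 0 allows a level of up to 0.319 CPM (3 counts). FGF19 was the 1 gene of the 14 neural retina genes that reached 5 CPM. The 13 pigment epithelium genes summed to 79.3 CPM in members against 65.1 CPM, and 2 of the 13 were at 0. MITF, the pigment cell factor, had 21 UMIs in members and a ratio of 2.33 (1.37 to 3.80), and PMEL, a melanosome protein, a ratio of 1.31 (1.19 to 1.44) in members and of 1.66 (1.47 to 1.87) in SIX6 cells. Of 20 hypothalamus genes, NKX2-2, NKX2-4 and HMX3 had 0 UMIs in members and in comparison cells alike, 5 of the other 17 were at 0 in members, and the list summed to 140.4 CPM against 126 CPM. NKX2-1 had UMIs in 3 of 323 members (0.929%), against 2.13% of comparison cells of equal depth. Of 13 pluripotency and germ layer genes seen in members or comparison cells, 4 were at 0 in members, among them POU5F1, SOX17 and TBXT, of which the comparison cells held 20, 1 and 1 UMIs, and the list summed to 888 CPM against 860.0 CPM. None of its 5 genes at 5 CPM or more passed 1.5-fold in members, beside 0.312% of all genes higher and 1.75% lower, and L1TD1, an RNA-binding protein of stem cells, was the 1 higher in SIX6 cells, at 1.63 (1.502 to 1.76), beside 1.74% of all genes.

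Several genes of the dorsal telencephalon were lower in SIX6 cells. Of the 22 genes of this list, 11 reached 5 CPM. In SIX6 cells 6 of these 11 were at least 1.5-fold lower, none was higher and their median ratio was 0.49, beside the 6.63% of all genes that were lower and their median of 0.958. EMX2, the homeodomain factor of the dorsal and caudal cortex, was at 7.88 CPM in SIX6 cells against 51.9 CPM, a ratio of 0.15 (0.11 to 0.21), and 24 of 160 SIX6 cells held an EMX2 UMI (15.0%, against 59.7% of comparison cells of equal depth). HES5, the Notch effector of neural progenitors, was at 32.4 CPM against 144 CPM, a ratio of 0.23 (0.19 to 0.26). C1orf61, an RNA of radial glia, had 6 UMIs and a ratio of 0.098 (0.036 to 0.21). EPHA3 had a ratio of 0.30 (0.20 to 0.43), NR2F1 one of 0.49 (0.37 to 0.64) and OTX1 one of 0.37 (0.18 to 0.69). OTX1 depended on the setting, at 0.71 (0.34 to 1.33) in strata of depth and contractile level. In cells with no ANXA1, TFPI2 or CTGF UMI it was at 0.74 (0.27 to 1.63). Neither value was 1.5-fold lower, and both intervals hold 1.

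In RAX cells 1 gene of the same 11 was higher, OTX1, and 2 were lower, C1orf61 and EPHA3, with a median ratio of 0.97, beside the 0.7% of all genes that were higher and the 3.64% that were lower in RAX cells. EMX2 was at 75.4 CPM against 56.2 CPM, a ratio of 1.34 (1.16 to 1.54), and 79 of 109 RAX cells (72.5%) held an EMX2 UMI, against 58.6% of comparison cells of equal depth. OTX1 had a ratio of 2.20 (1.53 to 3.08). DMRTA2, a factor of the cortical hem and dorsal telencephalon, had 22 UMIs in 12 cells, 8 of them in 1 cell, and a ratio of 2.62 (1.62 to 4.01). Set directly against RAX cells, SIX6 cells had a ratio of 0.11 (0.075 to 0.16) for EMX2 and of 0.24 (0.19 to 0.29) for HES5. PAX3, which marks the dorsal neural tube, was seen in 14 of 109 RAX cells (12.8%) and 1 of 160 SIX6 cells (0.625%), against 4.05% and 4.38% of comparison cells of equal depth.

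Cells with 1 UMI, which the rule did not choose, lay on the same sides. Among cells with a single SIX6 UMI and no RAX UMI (n = 343), EMX2 had a ratio of 0.48 (0.42 to 0.54), HES5 of 0.29 (0.27 to 0.33), LHX2 of 0.85 (0.80 to 0.90), SIX3 of 1.21 (1.17 to 1.25) and ID1 of 1.76 (1.64 to 1.89). Among SIX6 cells with 2 or 3 UMIs (n = 128), EMX2 was at 0.18 (0.13 to 0.25), HES5 at 0.28 (0.24 to 0.33), LHX2 at 0.69 (0.63 to 0.77) and ID1 at 2.49 (2.28 to 2.70). Among those with 4 or more (n = 32), EMX2 had 2 UMIs and a ratio of 0.039 (0.0047 to 0.14), HES5 had 5 UMIs and a ratio of 0.036 (0.012 to 0.084), LHX2 was at 0.45 (0.35 to 0.57) and ID1 at 2.98 (2.60 to 3.40). For EMX2, LHX2 and ID1 the ratio thus lay further from 1 at each step. Neighbouring counting intervals did not overlap for LHX2, and for EMX2 and ID1 they overlapped between the last 2 steps. These intervals leave out the spread among cells, so their overlap does not test the steps. For HES5 the first 2 steps were alike. Cells with a single RAX UMI (n = 701) had ratios of 1.26 (1.18 to 1.35) for PAX6, 1.09 (1.05 to 1.14) for LHX2, 1.20 (1.13 to 1.28) for EMX2 and 0.67 (0.60 to 0.76) for DLX5, all on the side of the RAX cells.

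**Figure D3:**
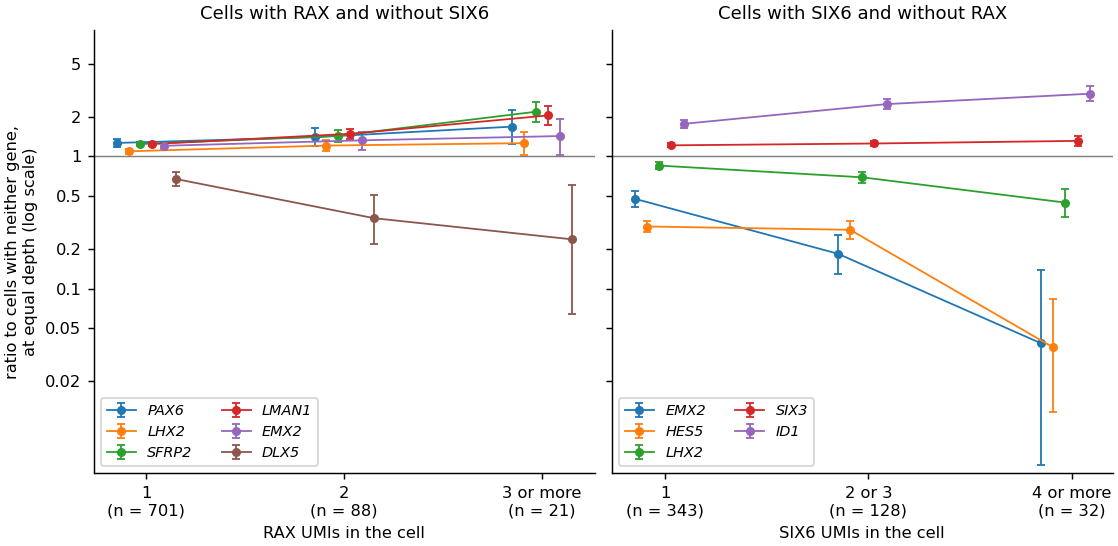
Ratio to comparison cells of equal depth (y axis, log scale) by the number of RAX UMIs in cells without SIX6 (left) and of SIX6 UMIs in cells without RAX (right); bars are 95% counting intervals and n is the number of cells. In the right panel EMX2 goes from 0.48 to 0.18 to 0.039 and ID1 from 1.76 to 2.49 to 2.98; cells with 1 UMI are not members.

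Contractile genes also separated RAX cells from SIX6 cells. The list holds actin-binding and smooth muscle-type genes, and 11 of its 14 genes in the file reached 5 CPM. It was partly picked by the study on these libraries, so its counts are not independent evidence. In RAX cells 10 of the 11 were at least 1.5-fold lower, none was higher and the median ratio was 0.38, beside 3.64% of all genes lower, and the summed level of the list was 985 CPM against 2412 CPM. In SIX6 cells 7 of the 11 were at least 1.5-fold higher, none was lower and the median ratio was 1.58, beside 1.74% of all genes higher, and the summed level was 4672 CPM against 2903 CPM. TAGLN, the actin-binding protein transgelin, had a ratio of 0.20 (0.18 to 0.22) in RAX cells and of 1.60 (1.56 to 1.64) in SIX6 cells. With cells thinned to 5000 UMIs, TAGLN was seen in 22.9% of RAX cells, 80.6% of SIX6 cells and 29.7% of comparison cells.

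Since the contractile level moves with both groups, the ratios were also taken in strata of depth and of the summed contractile list together, an alternative added after the data were seen. In SIX6 cells EMX2 then had a ratio of 0.27, HES5 of 0.48, C1orf61 of 0.26, LHX2 of 0.81, PAX6 of 0.82 and SIX3 of 1.16. FGF19 had one of 1.70, ID1 of 1.88 and DLX5 of 1.43, so each lay on the same side of 1 as before and nearer to it. In RAX cells PAX6 then had a ratio of 1.33 (1.15 to 1.52), LHX2 of 1.12 (1.02 to 1.22), OTX1 of 1.70 (1.18 to 2.37) and DLX5 of 0.49 (0.33 to 0.72). EMX2 in RAX cells was then at 1.08 (0.94 to 1.24), and at 1.08 (0.78 to 1.47) with cells thinned, intervals that hold 1. It was at 1.34 (1.16 to 1.53) in strata of depth and phase. Without the barcodes of highest Scrublet score it was at 1.44 (1.24 to 1.67), so its excess there depended on the setting. Among cells with no UMI of ANXA1, TFPI2 or CTGF at all, EMX2 had a ratio of 0.36 (0.24 to 0.52) in SIX6 cells and of 1.26 (1.04 to 1.51) in RAX cells, and DLX5 of 3.63 (2.78 to 4.66) and 0.27 (0.099 to 0.59). In the SIX6 cells among them PAX6 was at 0.78 (0.58 to 1.03), an interval that holds 1. In the RAX cells among them PAX6 was at 1.22 (0.99 to 1.49), LHX2 at 1.12 (0.99 to 1.26) and OTX1 at 1.63 (0.93 to 2.68), intervals that reach 1, as did that of OTX1 with cells thinned, at 2.23 (0.96 to 4.45). Without the barcodes of highest Scrublet score, EMX2 was at 0.15 and ID1 at 2.48 in SIX6 cells, and PAX6 at 1.52 and LHX2 at 1.25 in RAX cells.

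The set-aside cells lay on the side of the SIX6 cells in some of these genes and not in others. At equal depth, set-aside cells had ratios of 0.14 (0.12 to 0.16) for EMX2, 0.13 (0.12 to 0.14) for HES5, 2.99 (2.59 to 3.47) for FST, 3.36 (2.51 to 4.63) for BMP4 and 2.78 (2.73 to 2.84) for TAGLN, all on the same side of 1 as in SIX6 cells. They had ratios of 0.57 (0.55 to 0.60) for SIX3, 0.57 (0.52 to 0.63) for VAX1, 0.34 (0.31 to 0.38) for FEZF1, 0.32 (0.27 to 0.38) for FGF19 and 0.75 (0.68 to 0.84) for DLX5, all on the other side. For DLX5, FGF19 and VAX1 the thinned shares differed from these ratios. Thinned shares are not matched on original depth, which had a median of 48483 UMIs in set-aside cells and 16537 in comparison cells. With cells thinned to 5000 UMIs, DLX5 was seen in 17.3% of set-aside cells and 8.33% of comparison cells. FGF19 was then seen in 2.81% and 3.25% of them and VAX1 in 16.7% and 19.1%, shares that lie nearer to each other than the ratios do. XACT, with cells thinned, was seen in 69.9% of set-aside cells, 69.4% of SIX6 cells and 32.4% of comparison cells. It was thus as frequent in set-aside cells as in SIX6 cells by this measure. The median ratio of all genes in set-aside cells was 0.845.

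The signalling lists are given beside the shares of all genes, which were 1.74% higher and 6.63% lower in SIX6 cells and 0.7% higher and 3.64% lower in RAX cells. Of 16 BMP and TGF-β genes at 5 CPM or more, FST, ID1 and ID3 were higher in SIX6 cells and none was lower (median ratio 1.14), and in RAX cells none was higher and TGFB2, FSTL1 and TGFB1 were lower, at 0.52 (0.28 to 0.87), 0.65 (0.55 to 0.75) and 0.55 (0.29 to 0.94) (median 0.97). Of 26 WNT genes, none was higher and 6 were lower in SIX6 cells (median 0.85), among them LGR5, an R-spondin receptor, at 0.16 (0.081 to 0.29), WNT2B at 0.36 (0.24 to 0.50) and RSPO1 at 0.31 (0.15 to 0.56). In RAX cells 1 of the 26 was higher and 1 was lower (median 0.97). SFRP2, a secreted WNT inhibitor, was at 195 CPM against 124 CPM, a ratio of 1.57 (1.44 to 1.71), and TCF7, a WNT-responsive factor, had one of 0.50 (0.28 to 0.81). SFRP2 fell below 1.5-fold in strata of depth and contractile level, at 1.37 (1.25 to 1.49). In cells with no ANXA1, TFPI2 or CTGF UMI it was at 1.38 (1.21 to 1.56). Of 23 FGF and ERK genes, FGF17, FGF18 and FGF19 were higher and FGF10 and ETV1 lower in SIX6 cells, whereas in RAX cells FGF10 was higher, at 1.78 (1.25 to 2.47), and FGF19 and EGR1 lower. For FGF19 in RAX cells this depended on the setting. It was at 0.96 (0.59 to 1.48) in strata of depth and contractile level, an interval that holds 1. FGF3 had 20 UMIs in 12 SIX6 cells, a ratio of 9.75 (5.27 to 17.6). In RAX cells it had 0 UMIs where 1.22 were expected, a ratio of up to 3.13 and too few UMIs to read. Of 9 hedgehog genes none passed 1.5-fold in either group. Of 8 retinoid genes RARB, a retinoic acid receptor, was lower in SIX6 cells at 0.54 (0.38 to 0.76).

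**Figure D4:**
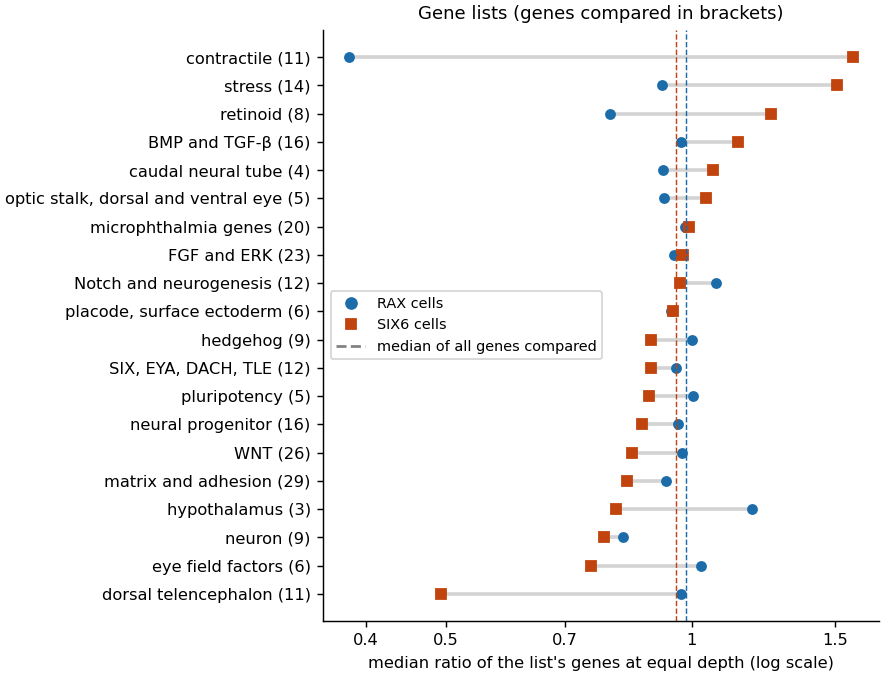
Median ratio to comparison cells of equal depth (x axis, log scale) over the genes of each list at 5 CPM or more, in RAX cells (blue circles) and SIX6 cells (red squares); brackets give the number of genes, and dashed lines the median of all 11861 genes. The contractile list lies at 0.38 in RAX cells and 1.58 in SIX6 cells, and the dorsal telencephalon list at 0.49 in SIX6 cells.

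Relatives and partners of SIX6 were read in the same way. Of 12 of them, from families such as EYA, DACH and TLE, none was higher and 4 were lower in SIX6 cells (median 0.89): EYA1 at 0.42 (0.29 to 0.60), EYA4 at 0.48 (0.41 to 0.56), TLE1 at 0.53 (0.45 to 0.63) and DACH2 at 0.59 (0.53 to 0.67), beside 6.63% of all genes. In RAX cells none of the 12 passed 1.5-fold (median 0.96), beside 0.7% of all genes higher and 3.64% lower, and DACH1, a corepressor of the retinal network, had a ratio of 1.47 (1.40 to 1.55). Of 29 matrix and adhesion genes 4 were higher in SIX6 cells, CDH6, EPHA7, LAMB1 and PCDH17, and 4 were lower, ROBO1, ROBO2, EPHA3 and TENM4 (median 0.83), beside 1.74% and 6.63% of all genes. CDH6, a cadherin, had a ratio of 1.82 (1.71 to 1.93), and ROBO2, an axon guidance receptor, one of 0.61 (0.52 to 0.71). In RAX cells none of the 29 was higher and 4 were lower (median 0.93), beside 3.64% of all genes. Of 20 genes linked to small or absent eyes, none was higher in either group, 3 were lower in SIX6 cells, RARB, OTX2 and SMOC1, and 1 in RAX cells, STRA6, beside 6.63% and 3.64% of all genes, and the medians were 0.99 and 0.98. Of 6 placode and surface ectoderm genes in SIX6 cells (median 0.95), the keratins KRT8 and KRT18 were higher, at 1.56 (1.44 to 1.69) and 1.58 (1.47 to 1.70), and EYA1 was lower, beside 1.74% and 6.63% of all genes. Of the 2 crest and mesenchyme genes at 5 CPM, PRRX1 and COL1A2, SIX6 cells had ratios of 1.80 (1.44 to 2.24) and 1.63 (1.30 to 2.03).

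Some progenitor and neuronal genes were lower in SIX6 cells. Of 16 neural progenitor genes 5 were at least 1.5-fold lower and 1 was higher (median 0.87), beside 6.63% and 1.74% of all genes. FABP7, a radial glial fatty acid-binding protein, had a ratio of 0.38 (0.35 to 0.41), SOX1 one of 0.45 (0.37 to 0.53), SOX9 one of 0.58 (0.50 to 0.67), ZIC1 one of 0.60 (0.56 to 0.64) and SOX3 one of 0.66 (0.50 to 0.85), and HES1 was the higher one at 1.58 (1.47 to 1.70). In RAX cells none of the 16 passed 1.5-fold, beside 0.7% of all genes higher and 3.64% lower. Of 9 neuron genes, MAP2, NEFM, NEFL and STMN2 were lower and GAP43 higher in SIX6 cells (median 0.78), and GAP43 was lower in RAX cells. Of 12 Notch and neurogenesis genes in SIX6 cells, HES5, LFNG and NOTCH1 were lower and HES1 higher (median 0.97). The shares of all genes for SIX6 cells and RAX cells stand beside these counts as well. In RAX cells 2 cells held all 13 UMIs of NEUROD1, a factor that drives neurons.

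Of 14 listed stress and immediate early genes, 7 were at least 1.5-fold higher in SIX6 cells and none was lower (median 1.505), beside the 1.74% of all genes that were higher. NEAT1, a nuclear noncoding RNA, had a ratio of 2.20 (2.07 to 2.34), CDKN1A, the p53-induced cell cycle inhibitor, one of 2.27 (1.81 to 2.83) and GADD45A one of 1.82 (1.62 to 2.03). In RAX cells none was higher and 5 were lower, NEAT1 among them at 0.55 (0.46 to 0.64), beside 3.64% of all genes. Their part in the other results was not tested. By called phase, 40 of 160 SIX6 cells were in G1 (25%), against 11.4% of comparison cells of equal depth, and 43.8% were in G2/M, against 52.5%. RAX cells had 11.9% in G1 and 49.5% in G2/M, against 15.1% and 45.1%. In strata of depth and phase together, EMX2 in SIX6 cells had a ratio of 0.16 and ID1 one of 2.59.

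Of 7 genes beside RAX or SIX6 at 5 CPM or more, 1 was 1.5-fold higher in RAX cells, LMAN1, and none was lower, beside 0.7% and 3.64% of all genes. LMAN1, a cargo receptor of the secretory pathway that lies upstream of RAX on the same strand (chr18:59327823-59359265), was at 225 CPM in RAX cells against 142 CPM, a ratio of 1.59 (1.46 to 1.72), and had UMIs in 107 of 109 RAX cells. It had a ratio of 1.24 (1.19 to 1.29) in cells with 1 RAX UMI, of 2.04 (1.73 to 2.39) in RAX cells with 3 or more UMIs and of 1.00 (0.93 to 1.08) in SIX6 cells. CCBE1, a secreted factor of lymphatic growth further upstream at chr18:59430939-59697662, had 13 UMIs in 7 RAX cells, a ratio of 3.12 (1.63 to 5.45), and a ratio of 2.25 (1.63 to 3.06) in cells with 1 RAX UMI. CPLX4, a complexin gene next to RAX, had 3 UMIs in RAX cells and 10 in all 10872 comparison cells, a ratio of 32.4 (5.33 to 146). On the other side of RAX, SEC11C, a signal peptidase subunit, had a ratio of 0.96 (0.84 to 1.10). GRP, a neuropeptide gene there, had 0 UMIs in RAX cells where 0.30 were expected, too few to read. Over the 199 genes of chromosome 18 that were compared, the median ratio in RAX cells was 0.971. At the SIX6 locus, C14orf39, which overlaps SIX6 on the other strand, had a ratio of 1.59 (1.20 to 2.07) in SIX6 cells.

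Other leading genes of the RAX cells were KIRREL3, an adhesion protein, with a ratio of 1.89 (1.67 to 2.14), RHOH with 1.88 (1.55 to 2.26), SEZ6L with 1.99, ZDHHC14 with 1.71, LIX1 with 1.68, PPP2R2B with 1.62, C19orf81 with 1.81 and CACNA1E with 1.67. SGCZ had a ratio of 2.93, but 46 of its 47 UMIs came from 1 cell. The lowest upper bounds in RAX cells belonged to TAGLN, AC016766.1 (0.27), ANKRD1 (0.22), ANXA3 (0.24), LINC00922 (1 UMI), AC125613.1 (0.18), CNN1 (0.20), ACTC1 (0.19), NECTIN3-AS1 (0.30), FAM84B (0.21), SLC1A1 (0.24) and DLX5. In SIX6 cells, EMX2, C1orf61 and HES5 were joined by LHFPL3 (0.15), AC092957.1 (0.22), KCNH5 (0.17), HS3ST3A1 (0.15), LGR5, POU3F2 (0.18), KCNQ3 (0.27), MYO16 (0.24) and AC022639.1 (0.31). The lowest in the pooled members were AC125613.1 (0.26), EPHA3 (0.32), C1orf61 (0.30), PCDH19 (0.37), KCNQ3 (0.40), AC009264.1 (0.35), POU3F2 (0.37), VEPH1 (0.42), MYO16 (0.42), POU3F3 (0.41), HES5 (0.48) and DOCK10 (0.44). POU3F2 and POU3F3 are POU factors of cortical progenitors and neurons.

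In the double-positive cells LHX2 had a ratio of 1.06 (0.93 to 1.19), PAX6 of 1.19 (0.97 to 1.44) and SIX3 of 1.17 (1.08 to 1.26). EMX2 had one of 0.60 (0.44 to 0.78), HES5 of 0.46 (0.37 to 0.55) and ID1 of 1.95 (1.71 to 2.21). Each of these values fell between those of the RAX cells and of the SIX6 cells. That was not so for every gene. Of the 6 eye field genes at 5 CPM or more, 6 lay above 1 in double-positive cells (median ratio 1.11). In RAX cells 3 of them did (median 1.03), and in SIX6 cells 2 (median 0.75). OTX2, among these 6, thus lay above its ratios of 0.98 in RAX cells and 0.66 in SIX6 cells. Of these 54 cells 9 had a Scrublet score in the top 8% of the library, and their part in these values was not tested.

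The place of the cells by genes other than RAX and SIX6 was read from their nearest neighbours. Each cell of the neighbour comparison (12225 cells with at least 5000 UMIs, thinned to that number) was given its 20 nearest cells over 30 principal components of 2000 variable genes, with RAX and SIX6 left out. Members made up 6.59% of the neighbours of members, against 3.85% of those of comparison cells of equal depth. By group, members made up 8.66% against 4.06% around SIX6 cells, 6.94% against 4.63% around double-positive cells and 3.39% against 3.16% around RAX cells. SIX6 cells made up 6.50% of the neighbours of SIX6 cells, against 2.28%, and RAX cells made up 1.97% of those of RAX cells, against 0.98%. The groups were rarer around each other, with SIX6 cells at 0.87% of the neighbours of RAX cells, against 1.64%, and RAX cells at 0.75% of those of SIX6 cells, against 1.03%. Of 160 SIX6 cells, 57 had no other SIX6 cell among their 20 neighbours and none had more than 5, and 73 of 109 RAX cells had no other RAX cell. Cells with 1 SIX6 UMI made up 9.69% of the neighbours of SIX6 cells, against 3.80%, and cells with 1 RAX UMI 9.72% of those of RAX cells, against 6.25%. With so few UMIs of either gene per cell, these shares do not show whether a group belongs to a separate cluster.

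**Figure D5:**
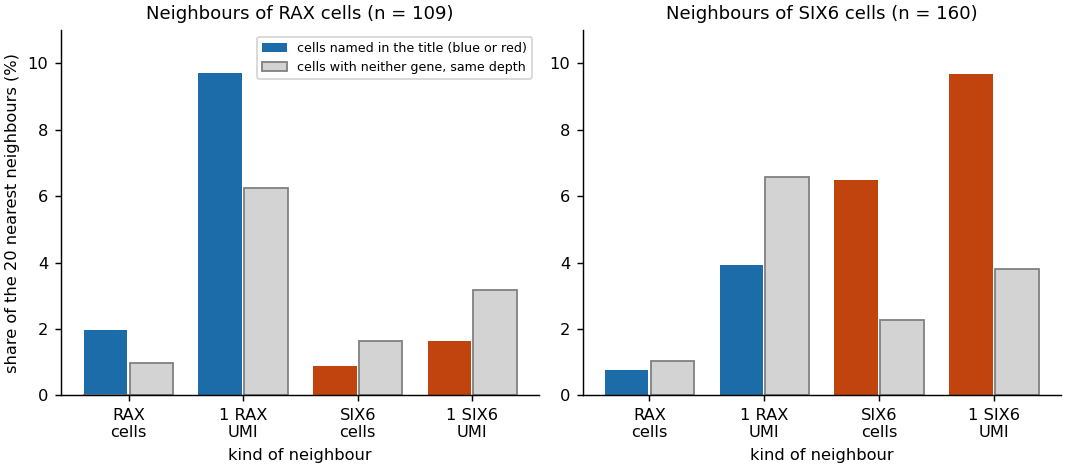
Share (%) of 4 kinds of cell among the 20 nearest neighbours of RAX cells (left) and of SIX6 cells (right), in colour, with the same share around comparison cells of equal depth in grey. SIX6 cells hold 6.50% of the places around SIX6 cells against 2.28%, and 0.87% of those around RAX cells against 1.64%.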

How the data were processed

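Droplet 3′ single-cell RNA-seq was made from 1 library (capture target 20000 cells, 10000 per loading well). Per the labels and the study's methods, the authors used Cell Ranger 7.0.1 at its default settings with GRCh38 and, for their own analysis, Seurat 4.4.0. The gene annotation is not given in the sources used here. The authors deposited raw counts (UMIs per gene and barcode) with no normalization. Kept cells held 236994890 UMIs, with a median of 16983 per cell.

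Levels were summed counts per 1000000 UMIs (CPM). Ratios set observed UMIs against those expected from comparison cells in 10 depth strata, with exact conditional 95% intervals. Shares have Clopper-Pearson intervals. Genes were compared at a pooled level of at least 5 CPM, and a 1.5-fold limit was used as a rule of size, with no test. The named genes were the 12 with the highest lower bound and the 12 with the lowest upper bound, every detected eye field gene, and up to 4 genes a side of each other list with at least 10 UMIs in members. The same rule was applied to RAX cells and SIX6 cells. Genes outside it, with those named below 5 CPM (BMP4, CCBE1, CPLX4, DMRTA2, FGF3, MITF, NEUROD1, PAX2 and PAX3), were chosen after their values were seen. The members and all gene lists were chosen with earlier results of these data known. The ratio and the neighbour search were tested on simulated data. Phases were called in scanpy 1.11.5 with the gene lists of Seurat 5.3.0. Scrublet's automatic threshold called 2 barcodes, so it did not work as a caller, and the highest 8% of scores were left out in an alternative. GENCODE 44 gave coordinates. Alternatives varied the depth control, the UMI limit, the filters, the level and fold limits and the neighbour search. Results of some genes are not reported here.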

Additional observations from a re-analysis of the deposited data

Results flagged for a closer look

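RAX and SIX6 RNA was also present in the 1497 cells that the rule sets aside for ANXA1, TFPI2 and CTGF and that enter no comparison of the members. These cells held 278 SIX6 UMIs in 151 cells, a level of 3.67 CPM (3.25 to 4.13), against 3.79 CPM (3.54 to 4.04) over all kept cells. They held 50 RAX UMIs in 46 cells, a level of 0.66 CPM (0.49 to 0.87), against 4.32 CPM (4.06 to 4.59) over all kept cells. Both lie above what a count of 0 allows. Of the set-aside cells, 71 had 2 or more UMIs of the pair (4.74%, exact binomial interval 3.72 to 5.95) and would have been members without that limit. Their median depth was 48483 UMIs. Both genes were seen together in 6 of these cells, against 4.23 if spread evenly at equal depth. SIX6 RNA was thus about as frequent per UMI in the set-aside cells as in the kept cells, and RAX RNA was rarer. The part of free RNA in these counts was not tested.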

How the results depend on the processing

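The pooled values kept their direction and stayed close to those reported with 20 strata, with per-cell means, with all other kept cells as the comparison, without the highest Scrublet scores and with no lower mitochondrial limit, and the neighbour share with 10 neighbours. For SIX3 (reported 1.16), LHX2 (0.89) and the counts of genes past the fold limit (37 higher, 208 lower), the other settings gave these values. With no depth strata LHX2 was at 0.81 and the counts were 195 and 443. With every cell thinned to 5000 UMIs, also with no depth strata, these were 0.84, 361 and 904. In strata of depth and phase 24 genes were higher. With members at 1 UMI or more, the share of kept cells was 11.2%, SIX3 was at 1.09, LHX2 at 0.98, the counts were 6 and 35 and members made up 15.4% of their own neighbours. At 3 UMIs or more these were 1.00% for the share, 0.78 for LHX2, 115 and 707 for the counts and 4.76% for neighbours. With RAX alone SIX3 and LHX2 changed direction, to 0.98 and 1.26, with a share of 0.964%, counts of 75 and 384 and 2.33% of neighbours. With SIX6 alone the share was 1.46%, SIX3 was at 1.26, LHX2 at 0.66 and the counts were 186 and 703. With members at 1 UMI per 10000 or more the share was 1.18%, LHX2 was at 0.82, the counts were 145 and 601 and neighbours 2.34%. Without the ANXA1, TFPI2 and CTGF limit SIX3 was at 1.32 and LHX2 changed direction to 1.03. At a pooled level of 1 CPM the counts were 221 and 880, at 20 CPM 10 and 69, and at a 2-fold limit 5 and 28. Unthinned counts gave 7.82% of neighbours. Chosen after seeing the data, cells with no ANXA1, TFPI2 or CTGF UMI gave 0.95 for LHX2 and counts of 111 and 383, and strata of depth and contractile level gave 1.12 for SIX3, 0.98 for LHX2 and counts of 19 and 106. The cause was not tested.

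Of 40 single-gene ratios in RAX cells and SIX6 cells under 5 such settings, 4 values crossed 1 where the reported interval left out 1, all in RAX cells. SOX2 went to 0.95 without ANXA1, TFPI2 and CTGF UMIs and to 0.93 when thinned, and FGF19 and VAX1 went to 1.22 and 1.03 when thinned. A further 10 values crossed 1 where the reported interval held 1. No paired analysis was possible because there was 1 library. A cell with few UMIs can miss RAX or SIX6 RNA, so cells without a UMI of either are not shown to lack it.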

Other observations

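A few genes outside the lists stood above the comparison cells in SIX6 cells and were chosen after their values were seen. HCRT, the precursor of the hypothalamic orexin peptides, had 59 UMIs in 41 of 160 SIX6 cells, a ratio of 5.03 (3.66 to 6.84) at equal depth, and 1 UMI in RAX cells. Its ratio was 1.89 (1.28 to 2.72) in cells with 1 SIX6 UMI, 4.62 (3.19 to 6.56) in SIX6 cells with 2 or 3 UMIs and 6.20 (3.55 to 10.3) in those with 4 or more. SPX, the precursor of the peptide spexin, had 17 UMIs in 14 SIX6 cells, a ratio of 5.56 (2.99 to 9.90), and 0 UMIs in RAX cells. SSTR2, a somatostatin receptor, had 83 UMIs in 49 SIX6 cells, a ratio of 1.86 (1.46 to 2.34). CRYAB, a lens and stress chaperone, had a ratio of 8.13 (4.14 to 15.6), but 11 of its 17 UMIs came from 1 cell. POMC, OTP and HMX2, other genes of the hypothalamus, had 0 UMIs in SIX6 cells, and 99, 5 and 7 UMIs in all 10872 comparison cells.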
